A study of Saccharomyces cerevisiae with 35 samples.

Results

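The genes described here are the ORFs of chromosome XVI of *Saccharomyces cerevisiae*. They were taken as every row of the deposited count table that lies on chromosome XVI and whose systematic name begins with YPL or YPR, for the left and the right arm, followed by a number and by W or C for the strand. They number 511 of the 12131 features counted, with 293 on the left arm and 218 on the right, and 27 of them carry a suffix to the name. Whole colonies grown for 4 d on rich medium with glucose were scraped and pooled, and their RNA was sequenced in 4 libraries per strain. The chromosome XVI disome carries 2 copies of chromosome XVI, and the hemizygous strain is the same disome with *dig1*Δ::kanMX4 in place of *DIG1* on 1 of its copies. The chromosome XV disome carries 2 copies of chromosome XV and 1 of chromosome XVI, and F45, the haploid parent of all of them, carries 1 copy of each. A further strain, F45 with the empty plasmid pRS41K, is used below only as a further measure of the level at 1 copy. All are *MATa* haploids in which the *HO* gene is deleted with an hphMX6 marker and *SPS2* is fused to EGFP with a natMX4 marker, and all share a serine auxotrophy whose locus was not mapped. Each genotype is represented by 1 strain, so a difference between genotypes includes whatever else differs between those strains.

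In a disome, a haploid yeast cell keeps an extra copy of a whole chromosome, so that every gene on it is present in an additional copy while the rest of the genome is not. Transcription of yeast genes mostly follows gene dosage, but regulators that respond to nutrients, oxygen, pheromone or stress can hold a gene above or below the level that its dosage alone would give. Chromosome XVI carries genes of many kinds, among them ribosomal proteins, subunits of the mitochondrial ATP synthase, the heat shock protein *HSP82*, and *DIG1*, which encodes a repressor of filamentous growth and mating genes. The question asked of each ORF is whether its ratio between a strain with 2 copies and a strain with 1 copy departed from 2-fold.

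Promoters of the reference strain S288c were read for 10 ORFs that departed far from 2-fold, and 6 of them are shown. *EEB1*, *MET16* and *PRM3* lay above 2-fold and *GRE1*, *PMA2* and *ALD6* below it. Each window of 200 bases ends 101 bases before the start codon, is written 5′ to 3′ on the strand of the gene, and comes from the RefSeq assembly R64, whose coordinates agree for 463 of the 464 chromosome XVI ORFs found in its annotation with those deposited. Capitals mark matches to 6 motifs searched on both strands, namely AGGGG (stress response element), TGACTC (Gcn4), CACGTG (Cbf1 and Pho4), TGAAACA (Ste12), ATTGTT (core of the Rox1 operator) and GATGAG (PAC element). None of these 6 contains another.
EEB1 promoter, chrXVI:369542-369741, minus strand: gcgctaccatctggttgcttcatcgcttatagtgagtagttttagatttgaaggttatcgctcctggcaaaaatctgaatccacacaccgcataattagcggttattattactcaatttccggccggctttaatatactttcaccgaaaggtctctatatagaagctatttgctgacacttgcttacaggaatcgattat
MET16 promoter, chrXVI:877733-877932, minus strand: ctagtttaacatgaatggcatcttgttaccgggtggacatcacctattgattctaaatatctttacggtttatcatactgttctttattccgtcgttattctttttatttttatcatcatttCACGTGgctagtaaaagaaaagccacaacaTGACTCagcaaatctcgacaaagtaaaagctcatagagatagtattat
PRM3 promoter, chrXVI:183157-183356, minus strand: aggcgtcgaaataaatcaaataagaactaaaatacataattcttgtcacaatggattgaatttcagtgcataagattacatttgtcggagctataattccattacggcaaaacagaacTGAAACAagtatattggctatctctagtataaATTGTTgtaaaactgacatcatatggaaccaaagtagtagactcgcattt
GRE1 promoter, chrXVI:129239-129438, minus strand: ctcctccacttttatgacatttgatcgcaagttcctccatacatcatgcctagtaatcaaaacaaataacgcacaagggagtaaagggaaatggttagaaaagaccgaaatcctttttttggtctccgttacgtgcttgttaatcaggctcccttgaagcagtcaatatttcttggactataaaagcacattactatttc
PMA2 promoter, chrXVI:482543-482742, plus strand: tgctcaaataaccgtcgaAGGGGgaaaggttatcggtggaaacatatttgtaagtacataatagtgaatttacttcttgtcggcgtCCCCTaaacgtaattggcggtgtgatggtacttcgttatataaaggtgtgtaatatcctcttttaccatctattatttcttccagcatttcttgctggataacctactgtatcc
ALD6 promoter, chrXVI:432288-432487, plus strand: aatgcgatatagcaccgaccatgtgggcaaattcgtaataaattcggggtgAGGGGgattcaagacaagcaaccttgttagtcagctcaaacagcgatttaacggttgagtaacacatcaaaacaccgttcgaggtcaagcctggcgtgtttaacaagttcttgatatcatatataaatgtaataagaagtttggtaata
The *MET16* window holds CACGTG 178 bases and TGACTC 148 bases before the start codon. The *PRM3* window holds TGAAACA and ATTGTT, the *PMA2* window AGGGG once on each strand, and the *ALD6* window AGGGG in a stretch outside the 12 bases that it shares with *YPL062W*. No match was found in the *EEB1* and *GRE1* windows, nor in those of *TDA6*, *YPR108W-A*, *ROX1* and *SSU1*, which are not shown, so that 4 of the 10 windows hold a match. No match says only that these letters are not in the window. A match is a description and not a site at which a factor was measured. The windows are those of S288c and not of F45, the parent of the strains measured. The paper reports significant divergence of F45 from this reference, so matches in F45 may differ and were not read.

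Total counts per library were 8029723–23575279 in the chromosome XVI disome, 6503076–14050660 in the hemizygous strain, 8426451–21975832 in the chromosome XV disome, and 8899951–17224177 in F45. Levels are normalized read counts (CPM) scaled to the summed counts of the nuclear ORFs outside chromosomes XV and XVI, so that the extra chromosome does not enter the scale. All ratios are given without copy adjustment. Of the chromosome XVI ORFs, 472 passed edgeR's filter on low counts. The 39 that did not include 25 absent from the RefSeq annotation and 3 without a count in any of the 24 libraries, and their mean level reached 0.651 CPM at most. Of the 472, 20 had a library of F45 under the 1.02 CPM that the filter asks for, and 11 of these 20 reached it in all 4 libraries of the chromosome XVI disome, so that these ORFs entered through strains where they were higher. The alpha-factor genes *MF(ALPHA)1* and *MF(ALPHA)2*, which *MATa* cells do not express, lay between 0.162 and 2.89 CPM. The other alpha-specific genes were counted higher, with 8.71–32.8 CPM for *STE3* and 51.9–73.6 CPM for *SAG1*, and the 4 *MATalpha* genes summed to 92.7–104 CPM in the chromosome XVI disome, 85.9–103 CPM in the hemizygous strain, 68.8–78.8 CPM in the chromosome XV disome, and 85.6–95.6 CPM in F45. The summed level of 4 *MATa* genes was 208–271 CPM in the chromosome XVI disome, 236–277 CPM in the hemizygous strain, 166–188 CPM in the chromosome XV disome, and 558–627 CPM in F45. The *MATa* sum differed between the strains with and without an extra chromosome, and the part of these markers in the ratios below was not tested.

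*DIG1*, the gene whose copy number separates both strains with 2 copies of chromosome XVI, served as a check of the labels. It had 143, 125, 149 and 130 CPM in the chromosome XVI disome, 54.7, 58.1, 65.3 and 62.7 CPM in the hemizygous strain, 55.6, 58.5, 53.9 and 53.5 CPM in the chromosome XV disome, and 66.6, 71.5, 63.5 and 72.0 CPM in F45. The chromosome XVI disome stood alone at the high level, and no library of it overlapped another strain. Its ratio to F45 was 2.00 (edgeR's quasi-likelihood test against 2-fold, Benjamini-Hochberg adjusted p = 0.972), and an exact two-sided permutation test of the CPM gave p = 0.0286, the smallest that 4 against 4 libraries allow. Over the chromosome XV disome the *DIG1* ratio was 2.48, above 2-fold (adjusted p = 0.000199 by the same edgeR test). At equal copy number, the chromosome XV disome had 0.808 times the *DIG1* level of F45 (edgeR's adjusted p = 0.000228 against 1-fold). The hemizygous strain had 0.440 times the *DIG1* level of the chromosome XVI disome, with edgeR's adjusted p = 4.79e-13 against equal levels.

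Across the 472 ORFs tested, the chromosome XVI disome had a median ratio of 1.98 to F45 and of 1.97 to the chromosome XV disome. Single libraries of the disome, each set against the mean of the other strain, gave medians of 1.99 ± 0.0182 and 1.96 ± 0.0200 (SD, n = 4 libraries each). The hemizygous strain gave 1.98 ± 0.0152 to F45 and 2.00 ± 0.00666 to the chromosome XV disome (SD, n = 4 each). These SDs do not include the choice of scaling. With TMM factors on total counts the medians over F45 were lower, as given in the last section. By chromosome, the 8 libraries with 2 copies had chromosome XVI medians between 1.96 and 2.01 times F45, and single-copy chromosomes had medians between 0.898 and 1.06. Colonies are mixtures of cells, so fewer cells that express a gene cannot be told apart from less of its RNA per cell. F45 forms structured colonies, both disomes form smooth ones and the hemizygous strain partly structured ones, so copy number and colony form cannot be told apart against F45 and are set apart only in part by the chromosome XV disome.

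Individual ORFs spread widely around these medians. In the chromosome XVI disome over F45, the middle 50% of ratios lay between 1.55 and 2.37, and the outer 10% on each side lay under 1.11 or over 2.76. With a threshold of 0.01 on the adjusted p of edgeR's quasi-likelihood test, 119 ORFs were above 2-fold and 141 were below it, which is 55.1% of those tested. Among all 8097 features tested, 46% departed from their copy number in the same comparison, with 21.6% above and 24.4% below, and the ORFs of chromosomes I to XIV, at 1 copy in both strains, reached 51.3%. With TMM factors applied to total counts the split was 89 above and 174 below.

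In the other comparisons between 2 copies and 1 copy, between 42.8 and 63.1% of the ORFs tested departed from 2-fold. The hemizygous strain over F45 had 142 ORFs above and 156 below 2-fold, 63.1% of those tested, beside 49.9% of all features (22.9% above and 27% below) and 57.3% of the ORFs of chromosomes I to XIV, and the split was 103 above and 190 below with TMM factors on total counts. The chromosome XVI disome over the chromosome XV disome had 86 above and 116 below, 42.8%, beside 39.1% of all features (19.7% above and 19.4% below) and 43.2% of the ORFs of chromosomes I to XIV. The hemizygous strain over the chromosome XV disome had 117 above and 128 below, 51.9%, beside 44.1% of all features (21.9% above and 22.2% below) and 48.7% of the ORFs of chromosomes I to XIV. Without any change in copy number of chromosome XVI, the chromosome XV disome over F45 had 136 ORFs above and 139 below 1-fold, 58.3%, beside 51.4% of all features (23.1% above and 28.2% below) and 56.9% of the ORFs of chromosomes I to XIV. With TMM factors on total counts it had 95 above and 176 below. The SD of log2 ratios over the ORFs was 0.62 in the chromosome XVI disome over F45, 0.52 over the chromosome XV disome, and 0.62 in the chromosome XV disome over F45, against 0.61, 0.48 and 0.66 for the ORFs of chromosomes I to XIV. These comparisons share libraries, and their values stand side by side. *DIG1*, at 1 copy by design in the hemizygous strain, is counted among the ORFs below 2-fold in both comparisons of that strain.

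**Figure D1:**
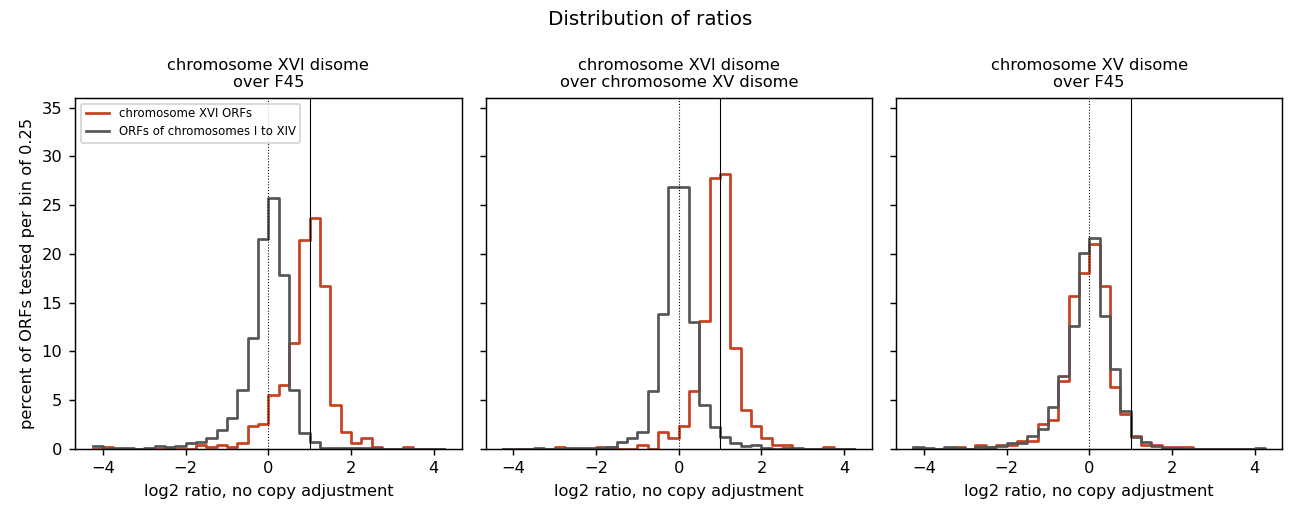
Distribution of log2 ratios without copy adjustment for the 472 chromosome XVI ORFs tested (red) and the 4910 ORFs of chromosomes I to XIV (gray), as the percent of ORFs in bins of 0.25. Solid lines mark 2-fold and dotted lines 1-fold; the red curve is centred at 2-fold in both comparisons of the chromosome XVI disome (medians 1.98 and 1.97) and at 1-fold in the chromosome XV disome over F45 (median 1.01).

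Most ORFs nevertheless rose with copy number. Tested against 1-fold, 402 ORFs were higher in the chromosome XVI disome than in F45 (26.4% of all features were), 16 were lower (22.6% of all features), and 54 did not pass the test in either direction. Over the chromosome XV disome 428 were higher (23.4% of all features), 9 were lower (24.2% of all features) and 35 did not pass. In 371 of the 472 ORFs the ratio to F45 was within 1.5-fold of 2, and a departure of more than a further 2-fold passed the test in 7 ORFs above (1.72% of all features) and in 32 below (7.32% of all features). The 7 include *YPR027C*, *YPR123C* and *SET6*, which had few counts in F45. They are the 3 ORFs above 2-fold with an F45 library under the filter's 1.02 CPM, and they entered through strains where they were higher. Among ORFs with a mean of at least 10 CPM, 3 above and 28 below passed. Fitted ratios to F45 were at or under 1 in 33 ORFs and over 4 in 10. A core subunit of the proteasome, *PRE2*, is an example at 2-fold: it had 363, 366, 355 and 358 CPM in the chromosome XVI disome, against 193, 185, 167 and 183 CPM in F45, a ratio of 1.98 (edgeR quasi-likelihood test against 2-fold, adjusted p = 0.857). After division by the copy number, the *PRE2* libraries of both strains overlapped.

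Departures seen in libraries that do not overlap were sought by setting the chromosome XVI disome over F45 beside the hemizygous strain over the chromosome XV disome, since these share no library. Of the 260 ORFs called in the chromosome XVI disome over F45 and the 245 called in the hemizygous strain over the chromosome XV disome, 149 were called in both. Among these, 39 were above 2-fold both times and 56 below, together 36.5% of the ORFs called in the chromosome XVI disome over F45 and 38.8% of those called in the hemizygous strain over the chromosome XV disome, and 54 went opposite ways. As a share of the 472 ORFs tested, 8.26% were above both times, 11.9% below both times and 11.4% opposite, beside 7.49, 8.09 and 11.9% of the ORFs of chromosomes I to XIV. Of all 8097 features, 6.32% were above and 7.45% below both times. The mirror pair, the hemizygous strain over F45 beside the chromosome XVI disome over the chromosome XV disome, had 28 above, 60 below and 48 opposite. These are 5.93, 12.7 and 10.2% of the ORFs tested, beside 6.19, 8.02 and 11.5% of the ORFs of chromosomes I to XIV. In neither pair was the share above far from that of the other ORFs. The share below was higher than theirs in both pairs, and this difference was not tested. In the first pair, the 39 above had median ratios of 2.68 and 2.67, and 24 of them were not called in the chromosome XV disome over F45. The 56 below had medians of 1.23 and 1.26, 27 of them were not called in the chromosome XV disome over F45, and 8 had fitted ratios under 1 in both comparisons. Both groups were picked by these same ratios, so their medians follow from the choice. Picking against both reference strains favors ORFs that are alike in them. Of all 472 ORFs, 58.3% were called in the chromosome XV disome over F45. Across the 472 ORFs the log2 ratios of both comparisons had a Pearson r of 0.34 and a Spearman rho of 0.22, against 0.18 and 0.15 over the 4910 ORFs of chromosomes I to XIV. These are correlations across ORFs of the same libraries, given as a description. A further pair set the chromosome XVI disome over F45 beside the chromosome XV disome over the empty plasmid strain, which shares no library with it and has no change in the copy number of chromosome XVI. There 148 ORFs were called in both, with 46 above and 70 below both times and 32 opposite, which is 9.75, 14.8 and 6.78% of the ORFs tested, beside 11.1, 12.1 and 5.32% of the ORFs of chromosomes I to XIV. The Pearson r was 0.26 and the Spearman rho 0.35, against 0.39 and 0.39 over the other ORFs. With the hemizygous strain over F45 in place of the chromosome XVI disome over F45, 36 were above, 57 below and 55 opposite, which is 7.63, 12.1 and 11.7%, beside 7.82, 10.1 and 11.1% of the ORFs of chromosomes I to XIV, with a Pearson r of 0.12 and a Spearman rho of 0.16.

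*EEB1*, which encodes an ethyl ester synthase that acts on medium-chain fatty acids, had the largest ratio to F45 among the ORFs above 2-fold that were well counted. It had 278, 320, 302 and 302 CPM in the chromosome XVI disome, 262, 252, 252 and 239 CPM in the hemizygous strain, 53.5, 62.3, 70.2 and 60.5 CPM in the chromosome XV disome, and 53.8, 59.7, 54.6 and 60.9 CPM in F45. Both strains with 2 copies lay above all libraries with 1 copy, and F45 and the chromosome XV disome overlapped. The ratio of the chromosome XVI disome was 5.26 to F45 (log2 SE 0.075, edgeR quasi-likelihood adjusted p = 7.16e-15 against 2-fold) and 4.87 to the chromosome XV disome.

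*TDA6*, a gene of unknown function, had a similar pattern at a lower level. Its levels were 32.7, 41.6, 39.6 and 45.4 CPM in the chromosome XVI disome, 32.3, 30.6, 35.7 and 39.8 CPM in the hemizygous strain, 10.2, 7.51, 9.29 and 11.01 CPM in the chromosome XV disome, and 10.6, 8.70, 9.02 and 10.6 CPM in F45. The ratio to F45 was 4.14 in the chromosome XVI disome (adjusted p = 1.04e-07 by edgeR's quasi-likelihood test) and 3.60 in the hemizygous strain. The libraries with 2 copies did not overlap those with 1 copy even after division by 2. *YPR108W-A*, a short uncharacterized ORF, gave ratios of 4.15 and 3.59 at 2.48–3.89 CPM in F45.

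*MET16* encodes the reductase that turns activated sulfate into sulfite on the way to methionine and cysteine. It had 66.5, 107, 79.0 and 91.1 CPM in the chromosome XVI disome, 88.5, 91.5, 98.0 and 86.4 CPM in the hemizygous strain, 15.3, 15.4, 18.8 and 20.2 CPM in the chromosome XV disome, and 23.9, 24.3, 25.4 and 26.7 CPM in F45. The chromosome XV disome lay below F45 in every library, so the ratio of the chromosome XVI disome was 3.42 to F45 and 4.80 to the chromosome XV disome (edgeR quasi-likelihood adjusted p = 1.05e-06 and 5.92e-10 against 2-fold). *SSU1*, which encodes the plasma membrane exporter of sulfite, moved the other way and is given below.

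*PRM3* is a pheromone-regulated gene needed for nuclear fusion after mating. Its levels were 17.4, 19.0, 15.5 and 18.2 CPM in the chromosome XVI disome, 29.7, 24.1, 23.7 and 24.4 CPM in the hemizygous strain, 4.04, 2.82, 4.93 and 4.44 CPM in the chromosome XV disome, and 4.06, 4.91, 5.57 and 5.92 CPM in F45. All hemizygous libraries lay above all those of the full disome, with a ratio of 1.46 between both strains (edgeR quasi-likelihood adjusted p = 0.00013 against equal levels). The chromosome XVI disome had 3.37 times and the hemizygous strain 4.93 times the *PRM3* level of F45, and both ratios passed the test against 2-fold (edgeR quasi-likelihood adjusted p = 9.82e-06 and 8.53e-10).

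*GUP2*, a putative acyltransferase gene, had 52.6, 57.0, 55.1 and 54.9 CPM in the chromosome XVI disome, against 9.57, 11.6, 12.6 and 11.6 CPM in F45, a ratio of 4.78 (log2 SE 0.077, edgeR quasi-likelihood adjusted p = 1.34e-13). The libraries of both strains were far apart, and the hemizygous strain, at 39.5–44.4 CPM, lay between them. *HTS1*, the histidine tRNA ligase gene, had 575, 538, 554 and 592 CPM in the chromosome XVI disome, against 221, 217, 220 and 191 CPM in F45, where the last library was low. Its ratio of 2.66 to F45 and 2.93 to the chromosome XV disome passed the test against 2-fold (edgeR quasi-likelihood adjusted p = 4.87e-07 and 4.22e-09). The cell cycle genes *ACM1*, an inhibitor of the anaphase-promoting complex, and *IPL1*, the aurora kinase, were above 2-fold to F45, with ratios of 3.88 and 3.13, and at 1.58 and 1.75 times the chromosome XV disome they did not pass the test against 2-fold.

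Among the largest fitted ratios to F45 were those of ORFs with few counts. *YPR027C* had 7–25 counts per library in the chromosome XVI disome and 0–2 in F45, and *YPR123C*, which overlaps *YPR124W* on the other strand, had 7–25 and 0–5. For *YPR123C* the call above 2-fold was lost in 5 of the 16 fits that left out 1 library (highest adjusted p = 0.0209). *SET6*, which carries a SET domain, had 30–67 counts in the chromosome XVI disome and 6–11 in F45. No fold is given for these ORFs.

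*GRE1*, a gene induced by osmotic and other stress, departed farthest below 2-fold and was below 1-fold as well. It had 374, 241, 348 and 283 CPM in the chromosome XVI disome, 223, 293, 367 and 299 CPM in the hemizygous strain, 2606, 2739, 1654 and 1727 CPM in the chromosome XV disome, and 5028, 5198, 3856 and 4332 CPM in F45. The order of the strains held without overlap between those with 2 copies, the chromosome XV disome, and F45. The chromosome XVI disome had 0.0677 times the level of F45 (log2 SE 0.20, edgeR quasi-likelihood adjusted p = 1.27e-17 against 2-fold) and 0.143 times that of the chromosome XV disome. *FMP40*, its divergent neighbor and a gene for a mitochondrial protein that transfers AMP to other proteins, had 127–159 CPM in the chromosome XVI disome, against 69.4–110 CPM in the chromosome XV disome and 223–291 CPM in F45. Its ratios were 0.562 to F45 and 1.62 to the chromosome XV disome.

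*ROX1*, the repressor of hypoxic genes, had 222, 142, 130 and 84.2 CPM in the chromosome XVI disome, 149, 134, 121 and 125 CPM in the hemizygous strain, 532, 607, 406 and 199 CPM in the chromosome XV disome, and 277, 330, 356 and 336 CPM in F45. The libraries of the chromosome XVI disome and of the chromosome XV disome were both widely spread, and the lowest library of the chromosome XV disome lay below the highest of the chromosome XVI disome. Its ratios were 0.447 to F45 and 0.334 to the chromosome XV disome (edgeR quasi-likelihood adjusted p = 2.20e-08 and 1.32e-09 against 2-fold). Tested against 1-fold, both ratios passed as well (adjusted p = 0.000131 and 1.96e-06 by the same edgeR test).

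*SSU1* and *ALD6*, the cytosolic aldehyde dehydrogenase that makes acetate, stayed at or under the level of 1 copy. *SSU1* had 427, 472, 422 and 430 CPM in the chromosome XVI disome, 339, 345, 350 and 371 CPM in the hemizygous strain, 683, 650, 506 and 403 CPM in the chromosome XV disome, and 568, 583, 570 and 555 CPM in F45. It was lower in both strains with 2 copies than in every library of F45, with ratios of 0.769 and 0.618 (edgeR quasi-likelihood adjusted p = 1.29e-11 and 2.26e-13 against 2-fold). The next ORF on the same strand, the glutathione reductase gene *GLR1*, had a ratio of 2.00 to F45 in the chromosome XVI disome, so these adjacent ORFs differed. *ALD6* had 2220, 1653, 1814 and 1370 CPM in the chromosome XVI disome, against 2561, 2425, 2261 and 1735 CPM in the chromosome XV disome and 2337, 2306, 2300 and 2105 CPM in F45. Its ratio was 0.780 to F45 and 0.786 to the chromosome XV disome, and the highest *ALD6* library of the chromosome XVI disome overlapped F45 before copy adjustment.

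*PMA2*, a minor isoform of the plasma membrane proton pump, differed from these in that the chromosome XV disome was low as well. It had 179, 144, 189 and 163 CPM in the chromosome XVI disome, 108, 125, 147 and 148 CPM in the hemizygous strain, 195, 210, 147 and 152 CPM in the chromosome XV disome, and 501, 547, 474 and 497 CPM in F45. F45 lay above the other strains in every library, and the disomes overlapped each other. Its ratio was 0.335 to F45 and 0.963 to the chromosome XV disome, and only the departure from 2-fold, not that from 1-fold, passed the edgeR test over the chromosome XV disome (adjusted p = 6.61e-09 and 0.693). *AQY1*, the spore aquaporin, had 77.8–98.3 CPM in the chromosome XVI disome, against 48.9–83.6 CPM in the chromosome XV disome and 257–303 CPM in F45, with ratios of 1.52 to the chromosome XV disome and 0.333 to F45.

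**Figure D2:**
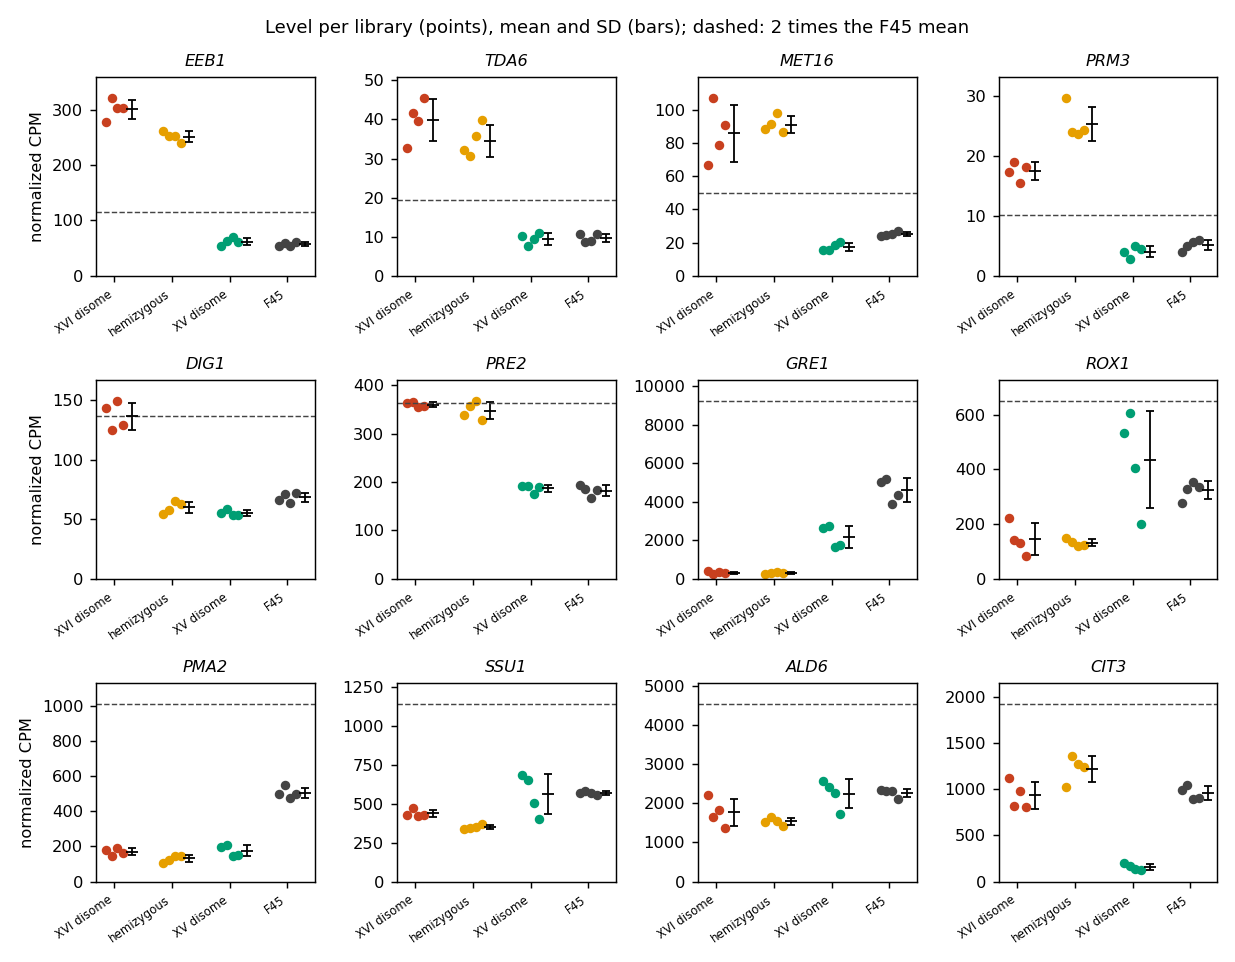
Normalized CPM of 12 ORFs in each library (points, linear axis from 0), with the mean and SD of the 4 libraries beside them; strains run from the chromosome XVI disome and the hemizygous strain to the chromosome XV disome and F45. The dashed line is 2 times the F45 mean: *EEB1*, *TDA6*, *MET16* and *PRM3* lie above it in both strains with 2 copies, *PRE2* lies near it, and *GRE1*, *ROX1*, *PMA2*, *SSU1*, *ALD6* and *CIT3* lie below it, while *DIG1* reaches it only in the chromosome XVI disome.

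The stress response element AGGGG was found in the promoter window of 28.6% of the 56 ORFs below 2-fold in both comparisons without shared libraries and of 10.3% of the 39 above. It was found in 13.8% of all 472 ORFs tested and in 16.2% of the 6574 nuclear ORF promoters of this length. AGGGG is 1 of the 6 motifs counted in these groups, and other motifs differed as well. ATTGTT was found in 14 of the 56 ORFs below, in 5 of the 39 above and in 24.6% of the 472. TGACTC was found in 4 of the 56 and 4 of the 39, and CACGTG in 2 and 3. For TGAAACA the numbers were 3 and 2, and for GATGAG 6 and 4. No difference between these shares was tested for any motif, and the windows were read for the letters only.

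The comparison with the chromosome XV disome, which also carries an extra chromosome, changed the picture for ORFs that differ between that strain and F45. *CIT3*, a mitochondrial citrate synthase and the first ORF right of the centromere, had 1121, 822, 980 and 807 CPM in the chromosome XVI disome, 1022, 1356, 1270 and 1241 CPM in the hemizygous strain, 197, 170, 135 and 129 CPM in the chromosome XV disome, and 993, 1046, 895 and 907 CPM in F45. Of these strains the chromosome XV disome was low in every library, and the chromosome XVI disome overlapped F45. The ratio was 0.971 to F45 and 5.94 to the chromosome XV disome, which are below and above 2-fold (edgeR quasi-likelihood adjusted p = 1.38e-08 and 1.04e-11). *PDH1*, its neighbor, which encodes a methylcitrate dehydratase, gave 1.16 and 3.69.

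*ARR3*, the arsenite exporter, had 16.8, 14.8, 15.4 and 14.0 CPM in the chromosome XVI disome, against 3.07, 3.09, 2.06 and 2.19 CPM in the chromosome XV disome and 6.53, 7.33, 7.19 and 5.78 CPM in F45. The 3 strains did not overlap, and the ratio was 2.24 to F45 (edgeR quasi-likelihood adjusted p = 0.207 against 2-fold) and 6.12 to the chromosome XV disome (adjusted p = 1.67e-10). *ASN1*, an asparagine synthetase, stood likewise at 2.05 times F45 and 4.08 times the chromosome XV disome. *OYE3*, an NADPH dehydrogenase, had ratios of 0.608 to F45 and 3.18 to the chromosome XV disome, which lay on different sides of 2-fold. *SRL4* had 52–112 counts per library in the chromosome XVI disome, against 1–12 in the chromosome XV disome, and its ratio to F45 was 1.36. On the low side, the zinc finger gene *CMR3* was at 0.569 times the chromosome XV disome and 1.36 times F45. *YPR050C*, which lies antisense to *YPR051W*, was at 0.267 times the chromosome XV disome and 0.958 times F45. These *YPR050C* ratios rest on few counts per library, 9–51 in the chromosome XVI disome, 58–131 in the chromosome XV disome and 17–30 in F45.

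Both strains with 2 copies of chromosome XVI differ by design in *DIG1*, and their levels could be set against each other for every ORF. In the hemizygous strain over the chromosome XVI disome, 68 ORFs were higher and 59 lower in edgeR's quasi-likelihood test, 26.9% of those tested, beside 20.2% of all features (9.76% above and 10.4% below) and 25.5% of the ORFs of chromosomes I to XIV. *DIG1*, at 1 copy by design in the hemizygous strain, is among the 59 lower. Without library 166 of the chromosome XVI disome, by the number in its column name, 43 were higher. The median ratio was 1.01 and the SD of log2 ratios 0.26. *AQY1* had 122, 166, 162 and 141 CPM in the hemizygous strain, against 94.8, 98.3, 98.0 and 77.8 CPM in the chromosome XVI disome, and did not overlap between them, with a ratio of 1.60 (adjusted p = 3.82e-05 by the same test). *NOG1*, a GTPase needed for assembly of the large ribosomal subunit, had 355, 325, 342 and 378 CPM in the hemizygous strain, against 505, 407, 462 and 461 CPM in the chromosome XVI disome, and was lower without overlap at 0.763 times (adjusted p = 0.000435). *RHO1*, the GTPase of the cell wall integrity pathway, was higher at 1.19 times.

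By function, 10 lists of chromosome XVI ORFs were read by their counts and medians, and no list was tested as a whole. Over all 472 ORFs, 25.2% were above and 29.9% below 2-fold to F45 in the chromosome XVI disome, and 18.2 and 24.6% over the chromosome XV disome. In the hemizygous strain the shares were 30.1 and 33.1% over F45 and 24.8 and 27.1% over the chromosome XV disome, and in the chromosome XV disome over F45 they were 28.8 and 29.4% above and below 1-fold. The shares of all features stand above, at 22.9% above and 27% below for the hemizygous strain over F45. The 11 cytosolic ribosomal protein genes had a median ratio of 2.28 to F45, with 4 above and 1 below 2-fold, but of 1.31 to the chromosome XV disome, with all 11 below 2-fold. In the chromosome XV disome, where these ORFs have 1 copy, all 11 were above F45, with a median of 1.75. *RPL43A* shows the pattern, with 843, 959, 909 and 955 CPM in the chromosome XVI disome, 734, 701, 871 and 993 CPM in the chromosome XV disome, and 247, 278, 294 and 298 CPM in F45. Both disomes lay above F45 and overlapped each other, and the ratios of the chromosome XVI disome were 3.28 to F45 and 1.11 to the chromosome XV disome. *RPL7B* was the gene below 2-fold to F45, at 1.58, and *RPL36B* was above at 2.91. *RPL43A*, *RPL7B*, *RPL36B* and others of the 11, though not all, have a paralog elsewhere in the genome. Reads were counted without a filter on mapping quality, so the counts of genes with a paralog are uncertain where sequences are shared. The median over all 472 ORFs was 1.98 to F45 and 1.97 to the chromosome XV disome.

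The 13 ORFs of mitochondrial respiration and the TCA cycle had a median of 1.34 in the chromosome XVI disome over F45, with none above 2-fold and 8 below. Over the chromosome XV disome the median was 2.13, with 3 above and 1 below, and in the chromosome XV disome over F45 it was 0.653, with 1 above and 9 below 1-fold. None was above there without library 164, 165 or 166 of the chromosome XV disome or library 164 or 166 of F45, nor with TMM factors on total counts. The hemizygous strain had 3 above and 8 below 2-fold to F45 (median 1.59), and 7 above and none below over the chromosome XV disome (median 2.23), where 1 was below without library 167 of the chromosome XV disome. Its number above 2-fold to F45 was 1 with TMM factors on total counts, and also without library 165 of the hemizygous strain or library 167 of F45. Fumarase (*FUM1*) had 2540, 1804, 2333 and 2046 CPM in the chromosome XVI disome, against 1703, 1639, 1605 and 1579 CPM in F45, and stood at 1.34 times F45 and 2.05 times the chromosome XV disome. *ICL2*, a 2-methylisocitrate lyase, stood at 0.896 and 2.00 times. The ATP synthase subunits *ATP4* and *ATP15* were at 1.63 and 1.21 times F45. Both were higher in the hemizygous strain than in the full disome, by 1.44-fold and 1.32-fold (edgeR quasi-likelihood adjusted p = 1.78e-06 and 0.00127), and their libraries did not overlap between these strains.

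Of the 6 mitochondrial ribosomal protein genes, 4 were above and 1 was below 2-fold when the chromosome XVI disome was set against F45, and 5 above and 1 below for the hemizygous strain, with medians of 2.50 and 2.86. Over the chromosome XV disome, 1 was above and none below for the chromosome XVI disome (median 2.09), and 4 were above and none below for the hemizygous strain (median 2.68). In the chromosome XV disome over F45, 2 were above and 2 below 1-fold, with a median of 1.175, and 1 was below without library 164 of the chromosome XV disome. *MRPS16*, a protein of the small subunit, had 315, 380, 322 and 321 CPM in the chromosome XVI disome, 487, 491, 459 and 459 CPM in the hemizygous strain, 169, 142, 179 and 166 CPM in the chromosome XV disome, and 118, 121, 134 and 120 CPM in F45. All 4 strains were apart, and the hemizygous strain was highest, at 1.42 times the full disome (edgeR quasi-likelihood adjusted p = 3.24e-05). *RTC6*, a protein of the large subunit, was the gene below, at 1.51 times F45, and *MRP51* was above at 2.35.

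Chaperone, stress and reserve carbohydrate genes had a median ratio of 1.17 to F45, with none of 10 above 2-fold and 8 below, and of 1.52 to the chromosome XV disome, with 2 above and 5 below. The hemizygous strain had medians of 1.24 to F45, with none above and 9 below, and 1.70 to the chromosome XV disome, with 2 above and 5 below. The same list was low in the chromosome XV disome over F45, at 1 copy on both sides, with a median of 0.748, none above and 6 below 1-fold. Besides *GRE1*, they include *HSP82*, the inducible Hsp90, with 1313, 1251, 1137 and 1123 CPM in the chromosome XVI disome, 1032, 827, 867 and 777 CPM in the chromosome XV disome, and 1104, 1059, 1069 and 993 CPM in F45. Its ratios were 1.14 to F45 and 1.38 to the chromosome XV disome, and both were below 2-fold (edgeR quasi-likelihood adjusted p = 1.04e-07 and 5.35e-05). Glycogen phosphorylase (*GPH1*) stood at 1.20 and 1.31 times, the sorting factor *CUR1* at 0.738 and 0.963 times, and the eisosome component *NCE102* at 1.37 and 1.67 times. *GLR1*, given above, and the glycogen debranching enzyme gene *GDB1*, at 1.61 times F45 (edgeR quasi-likelihood adjusted p = 0.0105), were the members that did not pass the test against 2-fold over F45.

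The remaining lists were mixed. Ribosome assembly and RNA polymerase I genes had medians of 2.14 to F45 and 1.88 to the chromosome XV disome, with 5 above and 2 below 2-fold to F45 among 16. *RPO26*, a subunit shared by the RNA polymerases, was above at 2.83, and *NOG1* below at 1.61. Libraries are named here by the number in their column names, 164 to 167. The number above in this list was 3 without library 164 or 167 of the chromosome XVI disome or library 164, 165 or 167 of F45, and the number below was 1 without library 165 of the chromosome XVI disome or library 166 of F45. In the hemizygous strain the same list had 3 above and 7 below 2-fold to F45 (median 1.80), and none above and 9 below over the chromosome XV disome (median 1.68). Its number above over F45 was 1 with TMM factors on total counts, and also without library 164 or 167 of the hemizygous strain or library 164 or 165 of F45. Amino acid and nitrogen genes had 3 above and 5 below among 11 (median 1.83), with *CAR1*, arginase, at 1.01 times F45 and 2.15 times the chromosome XV disome. Transcription regulators had 2 above and 6 below among 15 (median 1.83), with *RLM1*, the factor downstream of the cell wall integrity pathway, at 1.11 times F45 and the Mediator subunit *MED1* at 2.37 times. The *MED1* call was lost without library 167 of the chromosome XVI disome (adjusted p = 0.0101), and the number above in that list was 1 without that library or without library 165 of F45. Cell cycle, polarity and surface genes had 2 above and 3 below among 10 (median 1.93), with *RHO1* at 1.35 and *SVS1* at 0.750, and the number above was 1 without library 166 or 167 of the chromosome XVI disome or library 164 or 165 of F45. With TMM factors on total counts, no transcription regulator was above 2-fold to F45, and the ribosome assembly list had 3 above and 3 below. The proteasome and vacuolar ATPase list (4 genes) had a median of 2.11 and the arsenic resistance cluster (3 genes) of 2.14, with 1 and 0 above and none below 2-fold.

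**Figure D3:**
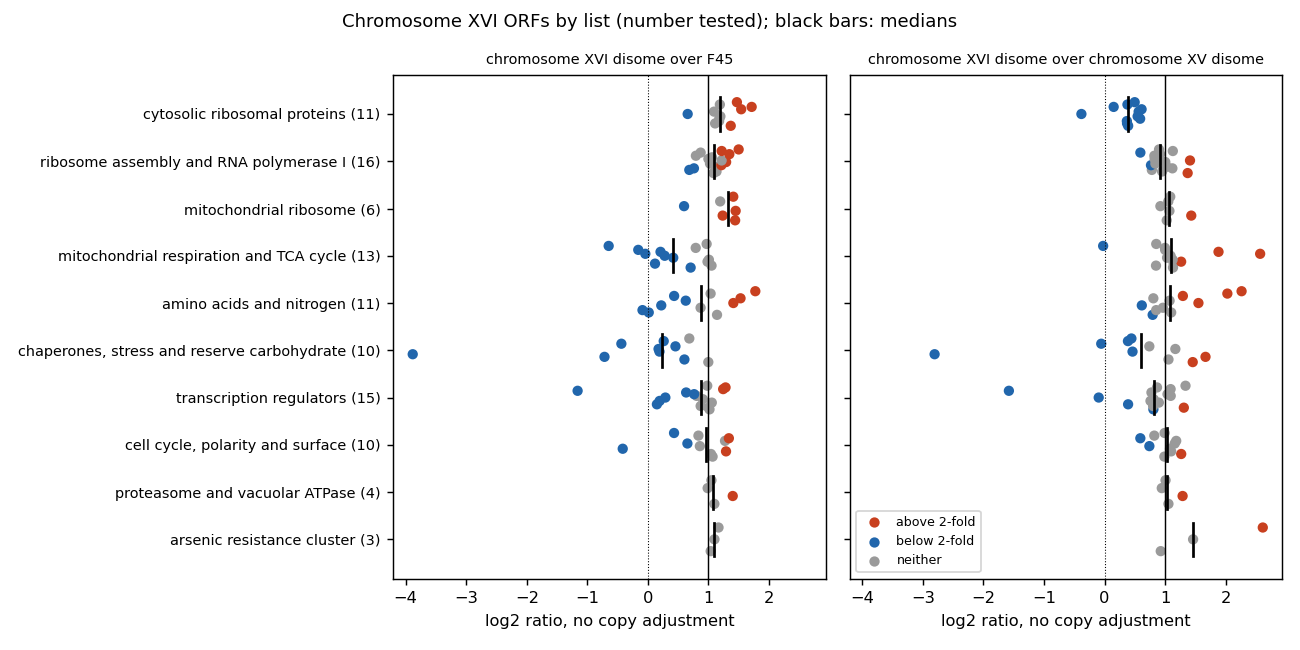
Log2 ratio of the chromosome XVI disome over F45 (left) and over the chromosome XV disome (right) for the ORFs of 10 lists, with the number tested in brackets; red points passed the test above 2-fold, blue points below it, and black bars are medians. The ribosomal protein genes have a median of 2.28 on the left and all lie below 2-fold on the right, while the respiration genes have medians of 1.34 on the left and 2.13 on the right.

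Position along the chromosome was weakly related to the ratio. The Spearman correlation of the ratio with the start coordinate was 0.08 over F45 and 0.06 over the chromosome XV disome (n = 472 ORFs of the same libraries, a description). The 275 ORFs tested on the left arm had a median ratio of 1.96 to F45 and the 197 on the right arm 2.00. In 12 consecutive blocks of 40 ORFs, the last one smaller, medians ran from 1.82 to 2.22 over F45 and from 1.79 to 2.23 over the chromosome XV disome. Neighbors with a shared divergent promoter region (119 pairs) had a Spearman correlation of 0.25 in the ratios of the chromosome XVI disome to F45, against 0.04 for tandem pairs (213) and −0.04 for convergent pairs (117). For divergent pairs it was 0.15 in the hemizygous strain over F45, 0.15 in the chromosome XVI disome over the chromosome XV disome, 0.21 in the hemizygous strain over the chromosome XV disome, and 0.21 in the chromosome XV disome over F45, where the copy number does not change.

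Ratios to F45 were lower at the ends of the chromosome. The 21 ORFs tested within 30 kb of an end had a median ratio of 1.54 to F45 in the chromosome XVI disome, with none above and 10 below 2-fold (21.6 and 24.4% of all features), against 2.14 for 63 ORFs between 30 and 100 kb and 1.99 for 388 ORFs farther inside. In the hemizygous strain over F45 the same 21 had a median of 1.20, with 2 above and 11 below (22.9 and 27% of all features). Of the 21, 7 had at least 50% of their windows of 51 bases repeated on another chromosome, and these had a median of 1.39 to F45 in the chromosome XVI disome. The 14 others had a median of 1.80, with 5 below 2-fold. Over the chromosome XV disome the medians of these 14 were 1.86 for the chromosome XVI disome, with 3 above and 4 below, and 1.975 for the hemizygous strain, with 4 above and 6 below. In the chromosome XV disome over F45, where they have 1 copy on both sides, their median was 0.769, with 1 above and 7 below 1-fold. For a repeated ORF reads of copies on chromosomes at 1 copy may be counted with it, because no mapping quality filter was used. *YRF1-7*, a subtelomeric helicase gene, had 29.5, 26.0, 29.9 and 27.6 CPM in the chromosome XVI disome, 19.0, 22.6, 21.2 and 19.2 CPM in the hemizygous strain, 17.8, 18.1, 18.9 and 19.999 CPM in the chromosome XV disome, and 17.98, 21.7, 20.2 and 21.2 CPM in F45. The chromosome XVI disome alone was high, at 1.39 times F45, and the hemizygous strain overlapped the strains with 1 copy. The enolase-related *ERR2*, at 0.884, and *YPR204W*, another helicase ORF, at 1.27, were below 2-fold, as was *HSP32* at 0.418, and *YPR202W* at 1.46 did not pass the test. Over the whole chromosome 11 such repeated ORFs were tested, with medians of 1.42 to F45 and 1.34 to the chromosome XV disome. They include *TEF1*, the translation elongation factor that has an identical paralog, at 1.75 times F45 (edgeR quasi-likelihood adjusted p = 0.0137).

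**Figure D4:**
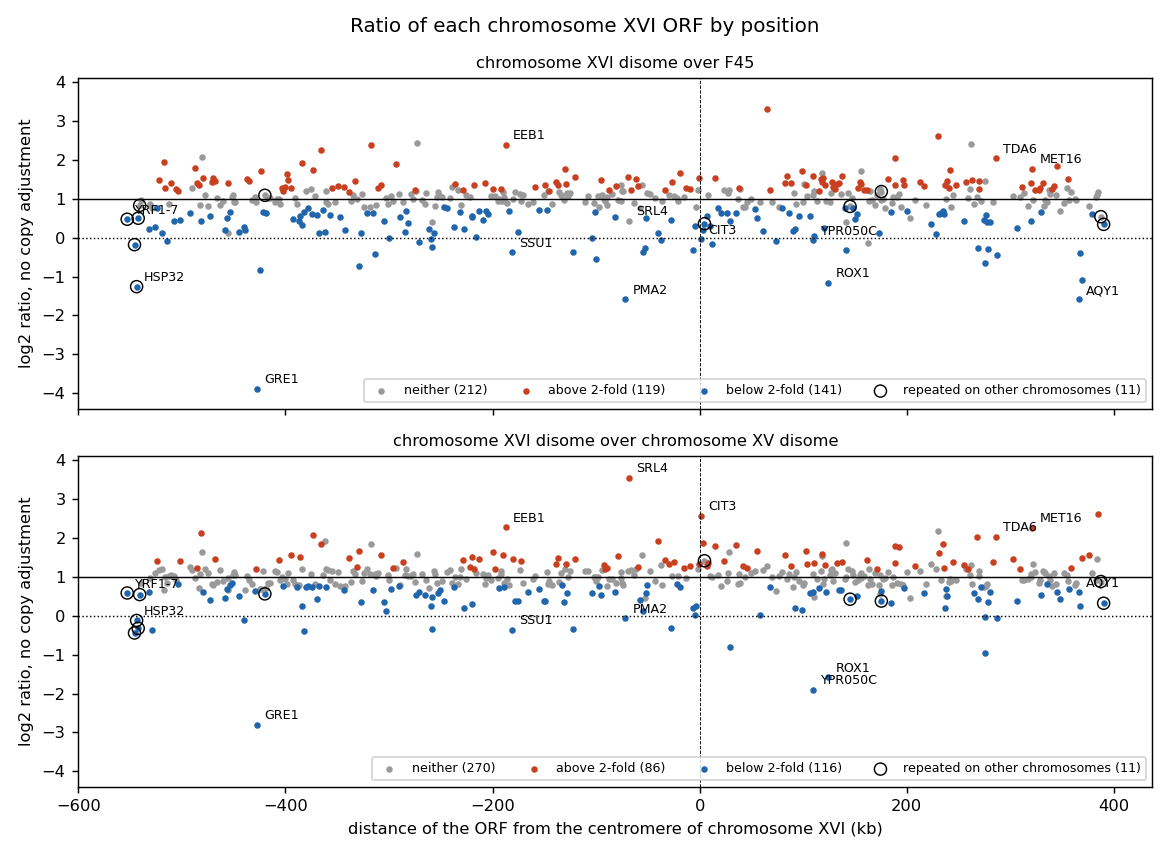
Log2 ratio of each chromosome XVI ORF tested against its distance from the centromere in kb, for the chromosome XVI disome over F45 (top) and over the chromosome XV disome (bottom); red and blue points passed the test above and below 2-fold, and black rings mark the 11 ORFs repeated on other chromosomes. Ratios scatter around 2-fold (solid line) on both arms, with medians of 1.96 left and 2.00 right of the centromere over F45.

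ORFs with a higher level in F45 had a lower ratio to F45. In 4 groups of 118 ORFs by mean F45 level, the median ratio of the chromosome XVI disome to F45 was 2.29 at 0.113–29.2 CPM, 2.06 at 29.3–60.7 CPM, 1.96 at 60.8–143 CPM, and 1.69 at 146–7391 CPM. The group lowest in F45 had 36 ORFs above and 23 below 2-fold, and the highest had 16 above and 59 below. The Spearman correlation was −0.29 over the 472 ORFs, which share the F45 libraries with the ratio itself. With the level taken from the empty plasmid strain, which enters neither side of the ratio, it was −0.22, and the groups had medians of 2.14, 2.06, 1.99 and 1.84. Some ORFs low in F45 passed the filter only through strains where they were higher. Taking the level from the empty plasmid strain does not remove this choice, and its part in the ratios of the lowest groups was not tested. Over the chromosome XV disome, the groups by F45 level had medians of 1.99, 2.03, 1.93 and 1.90 (Spearman −0.12). The order was present without a change in copy number too: in the chromosome XV disome over F45 the groups by F45 level had medians of 1.175, 1.03, 1.00 and 0.847 (Spearman −0.23, or −0.14 with the level from the empty plasmid strain).

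The ORF with the highest F45 level, *TEF1* at 7391 CPM, had a ratio of 1.75, and *GRE1* was among the 3 highest. In the chromosome XVI disome, length was weakly related to the ratio over the chromosome XV disome and less so over F45. In 4 groups by length, with 153–726 bases in the shortest and 1830–7470 in the longest, the medians were 2.06, 1.97, 1.99 and 1.96 over F45 and 1.81, 1.90, 2.00 and 2.16 over the chromosome XV disome, with Spearman correlations of −0.06 and 0.17. In the hemizygous strain the correlations were −0.17 over F45 and −0.01 over the chromosome XV disome, with medians of the shortest and longest groups of 2.11 and 1.82 over F45 and of 1.98 and 2.04 over the chromosome XV disome. In the chromosome XV disome over F45, where chromosome XVI has 1 copy on both sides, the same groups had medians of 1.10, 1.04, 1.06 and 0.914. The 22 ORFs tested that are absent from the RefSeq annotation had a median of 2.45 to F45, with a median log2 SE of 0.31.

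**Figure D5:**
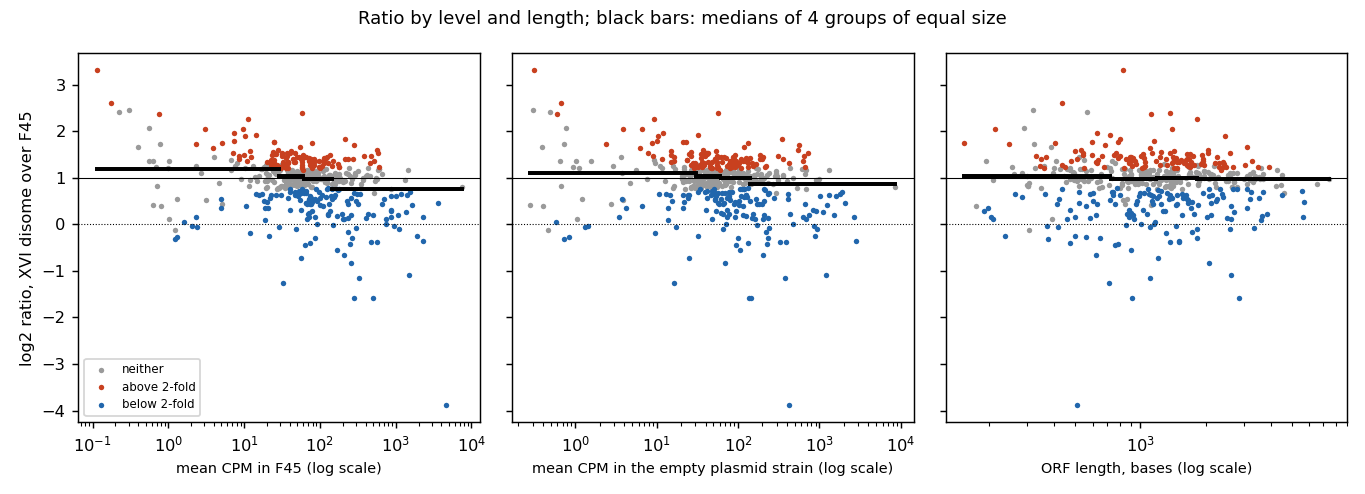
Log2 ratio of the chromosome XVI disome over F45 for each ORF against its mean CPM in F45, its mean CPM in the empty plasmid strain, and its length in bases (all log axes); colors mark calls above and below 2-fold and black bars the medians of 4 groups of 118 ORFs. The median of the lowest group is 2.29 and that of the highest 1.69 by F45 level (2.14 and 1.84 by the level in the empty plasmid strain), and medians stay between 1.96 and 2.06 across length.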

How the data were processed

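RNA from whole colonies was measured in 24 libraries of batch 1, 4 per strain. Per the study's methods, total RNA was made into stranded mRNA libraries, read as 51-base pairs in a single lane, aligned with Bowtie2 2.1.0 to the S288c genome (R64) to which sequences of F45 genes missing from S288c had been added, and, with an annotation widened to these genes and to noncoding classes, counted per feature and strand with featureCounts 1.4.0 with no filter on mapping quality. Raw counts per feature were deposited, which the authors made from single libraries without pooling. The second batch was not used here, and the *DIG1* plasmid strain shares the fit but enters no comparison. Columns name a strain and a number (164 to 167), and each was matched to its strain, not to a single sample.

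The members and the gene lists were chosen with earlier results of these data known. Features were filtered with filterByExpr, scaled by TMM from the counts of nuclear ORFs outside chromosomes XV and XVI, and fitted with edgeR 4.0.16 (R 4.3.3, limma 3.58.1) by the quasi-likelihood method with 1 coefficient per strain. CPM are relative to the summed counts of the ORFs used for scaling. Each ratio was tested two-sided against the ratio of copy numbers, and separately against 1-fold, with Benjamini-Hochberg adjustment over all 8097 features tested and a threshold of 0.01. Total counts ranged from 6503076 to 37823857 per library, and no libraries were identical. Each library is a pool of colonies, so p-values measure the spread between pools, which may be technical. The edgeR model covers counting error, and its fitted dispersion covers the spread beyond it.

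ORFs were named by a rule: *DIG1*; members of the lists; in each comparison the 5 ORFs with the largest and the 5 with the smallest ratio among those called whose libraries do not overlap after division by the copy number; the 5 with the largest departure in each direction in both comparisons that share no library; the 3 outermost ORFs tested at each end; and the 3 ORFs highest in F45. Which members of the lists are named was decided after their values were seen. An ORF picked by the rule is not reported here. The steps were tested on simulated data. Alternatives were the likelihood ratio test, DESeq2 1.42.0, other scalings and filters, a threshold of 1.5-fold (glmTreat), fits on the strains compared alone, fits without 1 library, and, chosen after seeing the data, a block for the number in the column names, counts over further groups of ORFs and fits without repeated or RefSeq-absent ORFs. Sequences and annotation came from RefSeq, assembly R64.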

Additional observations from a re-analysis of the deposited data

Results flagged for a closer look

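Of 240 sets of 4 libraries, 1 for each of 60 named ORFs in each of 4 strains, 25 held a library far from the others by Dixon's 95% criterion, which chance alone meets in about 1 set in 20. In the chromosome XVI disome the high libraries were those of *MRPS16* at 380 CPM (others 315–322), *SSU1* at 472 (422–430), *YPR027C* at 1.81 (1.05–1.13) and *ARR2*, a gene of the arsenic cluster, at 7.91 (5.19–5.64). The low libraries of that strain were those of *OYE3* at 27.6 CPM (35.7–37.1), *ASN1* at 817 (949–976), *GPH1* at 1439 (1707–1743), *GDB1* at 699.8 (866–897) and *AQY1* at 77.8 (94.9–98.3).

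In the hemizygous strain *SET6* at 4.98 CPM (others 1.60–2.14), *OYE3* at 36.9 (30.9–31.8) and *PRM3* at 29.7 (23.7–24.4) had a high library. *GLR1* at 264 CPM (290–293), *FUM1* at 1635 (2094–2124), *MED1* at 81.3 (94.1–95.5) and *NCE102* at 4864 (5775–5950) had a low library there. In the chromosome XV disome *PRE2* had a low library at 176 CPM (190–192). In F45 *NOG1* at 299.8 CPM (279.5–281.8) and *TEF1* at 7900 (7188–7250) had a high library. *ALD6* at 2105 CPM (2300–2337), *ATP4* at 1457 (1550–1567), *CAR1* at 80.7 (94.0–95.3), *HTS1* at 191 (217–221), *SET6* at 0.483 (0.807–0.870) and *YPR027C* at 0 (0.145–0.161) had a low library in F45.

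Of 59 named ORFs other than *DIG1*, 14 differed between both strains with 2 copies of chromosome XVI in edgeR's quasi-likelihood test, and 20.2% of all features tested did. The ratio of the hemizygous strain to the chromosome XVI disome was over 1 for *AQY1* (1.60), *PRM3* (1.46), *ATP4* (1.44), *MRPS16* (1.42), *IPL1* (1.39), *ATP15* (1.315), *CIT3* (1.31), *RHO1* (1.19) and *MRP51* (1.14). It was under 1 for *HTS1* (0.875), *EEB1* (0.836), *GUP2* (0.764), *NOG1* (0.763) and *YRF1-7* (0.726). In fits without 1 library the call was lost for *HTS1* in 11, *CIT3* in 10, *MRP51* in 7, *EEB1* in 6 and *IPL1* in 3 of 16 fits, with adjusted p up to 0.0361, 0.0441, 0.032, 0.0207 and 0.0141 by edgeR's test.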

How the results depend on the processing

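Under the alternatives listed in the methods no departure of a named ORF past the threshold changed sign. With TMM factors from all nuclear ORFs, median ratios over the chromosome XVI ORFs were 1.93 for the chromosome XVI disome over F45, 1.934 for the hemizygous strain over F45, 2.026 for the hemizygous strain over the chromosome XV disome and 0.9731 for the chromosome XV disome over F45. With TMM factors on total counts, the medians over F45 were 1.872 for the chromosome XVI disome, 1.873 for the hemizygous strain and 0.9465 for the chromosome XV disome, and 33.8, 35.2 and 35.1% of the calls were above the copy number, against 45.8, 47.7 and 49.5% with the scaling used. For the hemizygous strain, the medians over F45 and over the chromosome XV disome were 1.963 and 1.988 without a filter on low counts, 2.007 and 2.04 with only the strains compared in the fit, and 2.008 and 2.02 without repeated ORFs. The median of the chromosome XV disome over F45 was 0.9933 over ORFs listed in RefSeq. The test against departures of at least 1.5-fold, which asks for larger departures by construction, called 5 above and 40 below for the chromosome XVI disome over F45, 12 and 47 for the hemizygous strain over F45, 13 and 21 for the chromosome XVI disome over the chromosome XV disome, 14 and 26 for the hemizygous strain over the chromosome XV disome, 18 and 37 for the chromosome XV disome over F45, 0 and 1 for the hemizygous strain over the chromosome XVI disome, and 1 above and 7 below in both comparisons without shared libraries. Departures of more than a further 2-fold above 2-fold to F45 passed in 4 ORFs by that test, and in 3 among ORFs with a mean of at least 10 CPM. The 1 ORF that the 1.5-fold test called lower in the hemizygous strain than in the chromosome XVI disome was *DIG1*, which differs there by design. The cause of the other shifts was not tested. In fits without 1 library, the medians ranged from 1.972 to 2.002 for the chromosome XVI disome over F45, from 2.005 to 2.026 for the hemizygous strain over the chromosome XV disome and from 0.9935 to 1.01 for the chromosome XV disome over F45, and the counts above and below the copy number or 1-fold moved by less than 1.5 times, except that of ORFs higher in the hemizygous strain than in the chromosome XVI disome (43 to 76 in these fits, 43 without library 166 of the chromosome XVI disome). Among the named ORFs such fits lost 82 calls and gained 29 in 5728 values. Pairs of libraries with the same number in their column names had a mean r of deviations of 0.0723 (60 pairs, from −0.368 to 0.44, 33 over 0.1), against −0.0242 for pairs with different numbers (180 pairs, 48 over 0.1). The mean r was higher for pairs with the same number, and whether libraries with the same number share an effect was not tested. The main fit has no term for the number. With a replicate block for the number, 125 ORFs were above and 142 below 2-fold in the chromosome XVI disome over F45 (median 1.983), 143 and 160 in the hemizygous strain over F45, 92 and 116 in the chromosome XVI disome over the chromosome XV disome, 117 and 130 in the hemizygous strain over the chromosome XV disome, and 137 and 139 against 1-fold in the chromosome XV disome over F45. Depth limits ORFs such as *YPR027C*, with 0–2 counts per library in F45.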
